A study of Mus musculus with 51 samples.

Results

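Kinesins are motor proteins that use ATP to walk along, bundle or take apart microtubules. The mouse genes followed here are the 41 whose platform symbol begins with Kif or Kifc and a number, of 18193 genes with a probe set of their own. Mitotic kinesins build the spindle, move and align chromosomes and complete cytokinesis. Transport kinesins carry vesicles, organelles and protein complexes, and others work at cilia or in signalling. A fertilised egg first lives on motors and messages stored by the oocyte and replaces them with its own transcripts after the genome switches on, while its cells divide without growing. The 41 genes were sorted into 15 mitotic, 17 transport and 9 cilium, signalling and other kinesins by their textbook roles. Cenpe, a mitotic kinesin with another name, was counted among the spindle partners.

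Each array measured 1 oocyte or embryo. Cloned embryos were made by moving the nucleus of a Sertoli cell (the supporting cell of the testis tubule) of the B6CBF1 strain into a B6D2F1 oocyte, and 5 were taken at each of 6 stages. Embryos from in vitro fertilisation (IVF) of B6D2F1 × B6D2F1 gametes gave 3 per stage, and 3 metaphase II (MII) oocytes were B6D2F1. The stages were the 1-cell, 2-cell, 4-cell and 8-cell embryo, the morula and the blastocyst, at 16, 32, 48, 62, 72 and 84 h after activation or sperm addition. Clones and IVF embryos thus differ in nuclear donor strain and in activation as well as in the origin of the nucleus. They differ in sex as well: the Sertoli cell donors were male, and by the Y-linked RNA described below the IVF embryos were of both sexes. The labels call the replicates biological and name no animal or donor cell pool.

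Values are log2 intensities centred on a baseline of each probe set, so a value of 0 is no level and genes cannot be ranked against each other by abundance. A difference of 1 is 2-fold. In such whole-embryo samples, fewer cells with a transcript and less of it per cell cannot be told apart. Oocyte genes matched the stage labels: Bmp15 averaged 7.11 in MII oocytes, 9.66 in IVF 1-cell embryos and -1.47 in IVF blastocysts, and the trophectoderm keratin Krt18 averaged 8.81 in IVF blastocysts, against -2.95 in MII oocytes. Of the 5 Sertoli cell markers none passed between clones and IVF embryos at any stage. Amh was flat throughout, while Clu averaged 2.86 in 8-cell clones, against -0.38 in IVF 8-cell embryos. The RNA of the Y-linked gene Eif2s3y separates male embryos once they transcribe it, and the Sertoli cell donors were male. It stood at -5.25 in clone 8-cell replicate 4, near the -5.50 to -5.32 of the 1-cell clones, against -2.70 to 1.23 in the other 8-cell clones, so by this gene that embryo went against its label. Of 2 other Y-linked genes, Kdm5d was lowest in it (-0.64, against 0.01 to 3.46), while Uty was level with replicate 2 (-0.060 and -0.063). The reason was not tested. Among the 1-cell clones, replicates 1 to 3 stood apart in the array hybridisation controls (bacterial transcripts added before hybridisation), at -1.06 to -0.74 against 0.36 and 0.52 in replicates 4 and 5. Calls that rest on these libraries are also given without them. The controls differed between groups at several steps. Fits with them as a covariate, whose slope rests on the spread within groups, are therefore given for kinesins where they ended calls.

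Motifs that often mark genes of the division cycle were looked for in the 250 bases before the first start listed for each gene (build GRCm38.p6). For several genes that start lies inside the gene, so the window is not upstream of it. Among these are Kif2c (window to 117179022, minus strand, gene end 117182624), Kif14 (window from 136467598, plus strand, gene start 136466301) and Kif27 (window to 58355197, minus strand, gene end 58364745). Their windows hold the CHR letters and are counted below. The Kif22 window, printed below, also reaches into its gene (window from 127042421, minus strand, gene end 127042467). The last match marked in it lies inside the gene. The motifs were the cell cycle homology region (CHR, letters TTTGAA) and the CCAAT box (letters CCAAT), on both strands. A CCAAT match can share 1 letter with a CHR match. A window was found for 33 of the 41 genes. The CHR letters stood in 5 of 14 mitotic windows (35.7%), 0 of 11 transport windows, 2 of 8 windows of cilium, signalling and other kinesins (25%) and 16.3% of all 27025 windows. The CCAAT letters stood in 9 of 14 mitotic windows (64.3%), 3 of 11 transport windows (27.3%), 4 of 8 of the other kinesins (50%) and 34.5% of all windows. Both stood in 21.4% of the mitotic windows, 25% of those of the other kinesins and 5.73% of all windows. A match is a run of letters and not a shown binding site. Kif22 is printed because it was lower in clones at 2 stages and holds both motifs, Kif11 because it holds both and passed no test of clones against IVF embryos, Kif4 as an X-linked mitotic gene with the CCAAT letters only, and Kif17 as the transport gene with the widest swing and neither motif. The windows lie at chr7:127042421-127042670 (minus strand) for Kif22, chr19:37376132-37376381 (plus) for Kif11, chrX:100625815-100626064 (plus) for Kif4 and chr4:138262001-138262250 (plus) for Kif17, and motif matches are in capitals.
Kif22: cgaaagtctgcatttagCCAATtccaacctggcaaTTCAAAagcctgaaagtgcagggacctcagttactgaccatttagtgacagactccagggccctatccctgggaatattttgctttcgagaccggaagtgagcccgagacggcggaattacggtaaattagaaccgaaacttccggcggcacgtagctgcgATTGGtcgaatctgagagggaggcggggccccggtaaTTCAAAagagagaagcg
Kif11: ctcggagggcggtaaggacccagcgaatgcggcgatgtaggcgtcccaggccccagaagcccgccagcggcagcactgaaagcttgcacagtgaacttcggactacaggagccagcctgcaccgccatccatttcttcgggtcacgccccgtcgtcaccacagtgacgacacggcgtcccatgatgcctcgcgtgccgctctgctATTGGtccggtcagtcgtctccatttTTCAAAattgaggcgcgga
Kif4: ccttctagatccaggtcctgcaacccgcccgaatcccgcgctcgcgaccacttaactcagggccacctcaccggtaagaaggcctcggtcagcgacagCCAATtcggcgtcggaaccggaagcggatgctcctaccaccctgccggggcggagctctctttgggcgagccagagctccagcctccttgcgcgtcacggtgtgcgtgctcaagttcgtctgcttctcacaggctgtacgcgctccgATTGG
Kif17: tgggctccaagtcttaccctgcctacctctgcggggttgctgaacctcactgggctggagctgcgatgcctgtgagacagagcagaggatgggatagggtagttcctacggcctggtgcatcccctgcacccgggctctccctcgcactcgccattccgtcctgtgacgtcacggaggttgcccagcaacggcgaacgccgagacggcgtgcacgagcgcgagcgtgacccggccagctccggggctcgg

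The kinesins varied over development about as often as other genes. By limma's moderated F test, 33 of the 41 genes changed over the oocyte and the 6 IVF stages, where 68.6% of all genes did, and 31 changed over the 6 clone stages, where 77.5% of all genes did. Among the 33, 4 mitotic and 6 transport genes had their highest IVF-series mean in the MII oocyte, and 3 transport genes but no mitotic gene had it in the blastocyst. Over those 33 genes and the 7 oocyte and IVF group means, the 55 pairs of mitotic genes had a median correlation of 0.37 and the 105 pairs of transport genes one of 0.01. The most alike pairs of mitotic genes were Kif23 and Kif4 (r = 0.95), Kif18a and Kif23 (r = 0.94) and Kif22 and Kif2c (r = 0.94). Among transport genes Kif13b and Kif21b were the most alike (r = 0.94). These correlations describe 7 means from 21 shared arrays. Kif2b, Kif5a and Kif28 also tracked each other (r = 0.98 to 0.99), but all 3 had an SD of at most 0.15 over the arrays, so their calls concern shifts of about 0.1. Of the 26 genes with several probe sets, 19 had another probe set whose correlation with the one used was under 0.3. Kifc1 and Kifc5b are near-identical copies whose signals may mix.

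**Figure D1:**
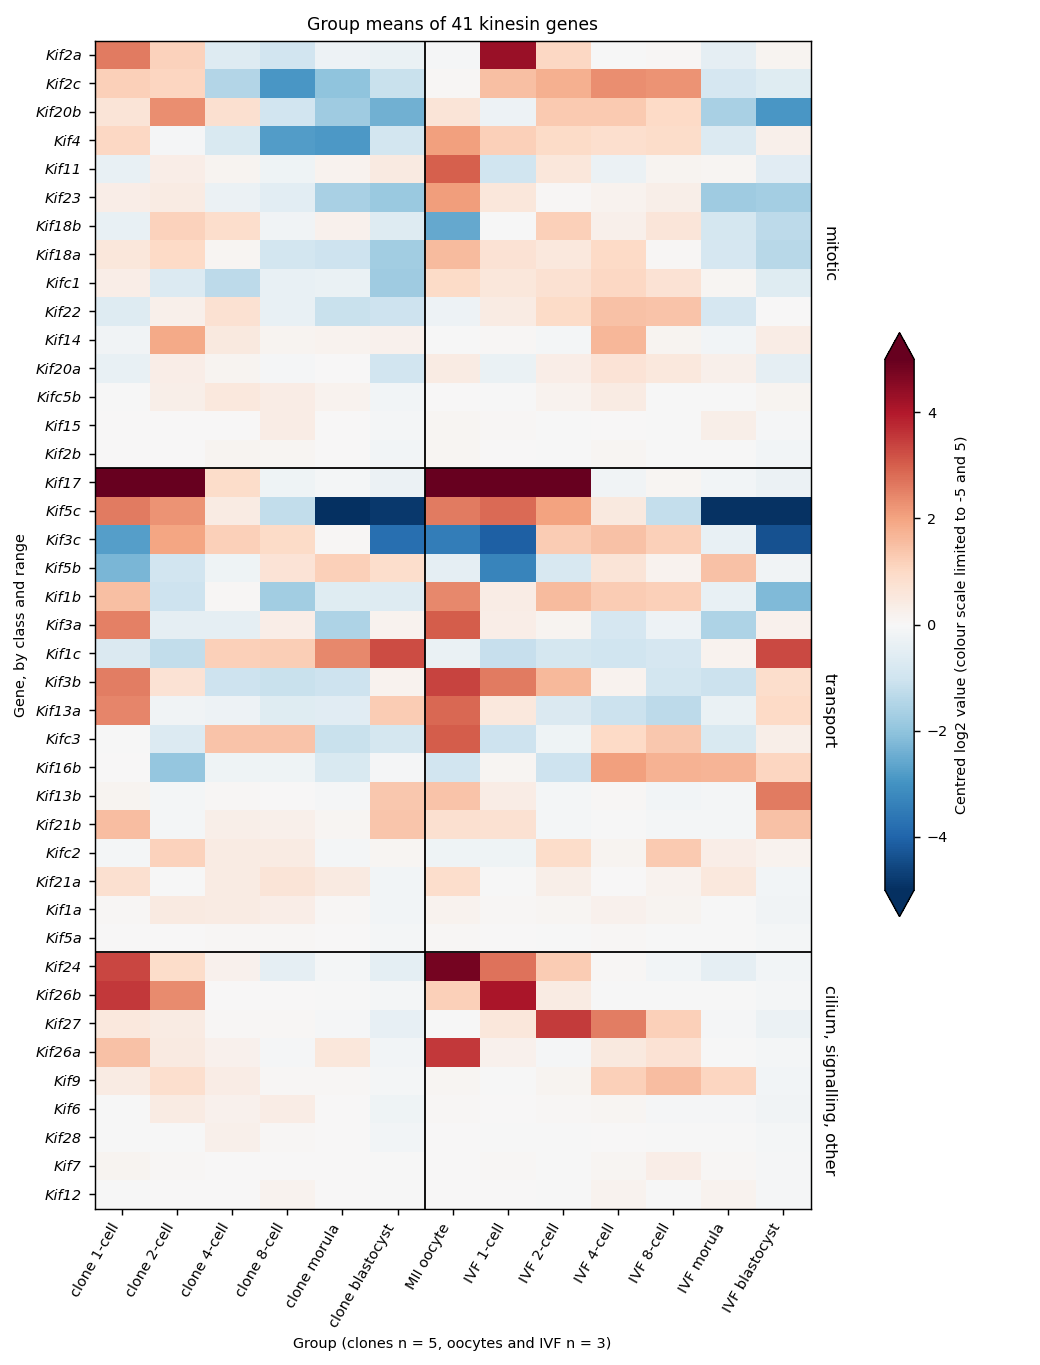
Mean centred log2 value of each kinesin gene in clone groups (left, n = 5 embryos each), then MII oocytes and IVF groups (right, n = 3 each), with red above and blue below each probe set's baseline. The mitotic block turns towards blue from the 8-cell stage in clones and from the morula in IVF embryos, and Kif17 exceeds the colour scale in oocytes, 1-cell and 2-cell embryos.

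Between the MII oocyte and the IVF 1-cell embryo 15 kinesins changed, 4 up and 11 down (limma, 30.6% of all genes). With the arrays quantile normalised again, the split was 4 up and 2 down. The hybridisation controls were 0.52 to 0.80 on IVF 1-cell arrays, against -0.79 to -0.46 on MII oocyte arrays. With them as a covariate 7 of the 15 passed, namely Kif17 (3.09), Kif2a (4.43), Kif18b (2.33), Kif1b (-2.88), Kif24 (-3.81), Kif3a (-3.21) and Kif5b (-4.07). Kif17, a homodimeric kinesin-2 known for carrying receptor vesicles in neurons, had 10.04, 10.03 and 10.35 in IVF 1-cell embryos, against 5.88, 5.69 and 5.61 in MII oocytes. It rose by 4.41 ± 0.37 (SE; adjusted p = 1.68e-07). Its other 2 probe sets had changes of 3.51 and 4.19. Kif2a, a microtubule depolymerase of spindle poles, rose by 4.38 ± 0.33 (4.25, 4.19 and 4.49 in IVF 1-cell embryos, against 0.36, -0.86 and 0.28 in MII oocytes). Its 4 other probe sets had changes of -0.56 to 3.67, and 2 of them shared the sign. The astral microtubule depolymerase Kif18b rose by 2.52 ± 0.27 and the atypical kinesin Kif26b by 2.90 ± 0.62. The largest falls were those of Kifc3, a minus-end-directed motor (-4.06 ± 0.43), Kif11 (-3.98 ± 1.09), Kif26a (-3.30 ± 0.71), the conventional kinesin heavy chain Kif5b (-2.85 ± 0.35) and the cilium motor subunit Kif3a (-2.68 ± 0.35). The 3 other probe sets of Kif3a had changes of -0.83 to 2.87, and the 5 of Kif5b ones of -1.64 to 0.04. Kif11, the kinesin-5 that slides spindle microtubules apart, had -1.60, -0.22 and -1.18 in IVF 1-cell embryos, against 2.91, 2.97 and 3.06 in MII oocytes, while its other 2 probe sets had -1.05 and -0.15. Of the mitotic genes 2 were up and 4 down, and of the transport genes 1 was up and 5 down.

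Between the MII oocyte and the clone 1-cell embryo 14 kinesins changed, 4 up and 10 down (limma, 25.7% of all genes). The split was 4 and 6 with quantile normalisation. Kif17 had 8.73, 9.10, 8.60, 8.92 and 8.82 in 1-cell clones, a rise of 3.11 ± 0.12 (adjusted p = 2.49e-05) over the MII oocytes. Kif2a rose by 2.66 ± 0.46, Kif18b by 2.19 ± 0.36 and Kif27 by 0.55 ± 0.10. The 4 other probe sets of Kif2a had changes of -0.43 to 3.50. Falls were seen in Kif11 (-3.34 ± 0.97), Kifc3 (-3.05 ± 0.24), Kif5b (-1.81 ± 0.49), the centriole kinesin Kif24 (-1.41 ± 0.19), Kif4 (-1.02 ± 0.09), Kif18a (-1.004 ± 0.18), Kif3b (-0.84 ± 0.24) and Kif20a (-0.77 ± 0.19). Kif2b (-0.09) and Kif5a (-0.06) also passed. The 2 other probe sets of Kif11 had changes of -1.11 and -0.12, the 2 of Kif24 ones of -0.07 and 0.55, and the 3 of Kif3b ones of -1.82 to 1.36. Without MII oocyte replicate 1 the count was 9. Without clone 1-cell replicates 1 to 3 it was 15, with 12 of the 14 kept, and Kif2b and Kif5a lost their calls. Kif20a passed in 4 of the 8 fits that left out an array, Kif11 and Kif5b in 2, Kif3b in 1 and Kif2b in 0. With the hybridisation controls as a covariate 13 of the 14 passed, and Kif3b (-0.75) did not. This comparison shares the 3 oocytes with the IVF series.

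Set directly against IVF 1-cell embryos, 3 kinesins differed in clones, 1 up and 2 down (limma, 6.31% of all genes; 1 and 1 under quantile normalisation). Kif17 and Kif2a, both higher in 1-cell embryos than in oocytes, were lower in clones: Kif17 had a difference of -1.31 ± 0.13 (adjusted p = 0.00493; 8.60 to 9.10 in clones, against 10.03 to 10.35 in IVF embryos) and Kif2a one of -1.73 ± 0.37 (adjusted p = 0.0448; 1.71, 2.17, 2.91, 2.79 and 3.33 in clones, against 4.19 to 4.49). Neither pair of ranges overlapped. The other 4 probe sets of Kif2a differed by -0.17 to 0.30, and only 2 of them shared the sign. Kif3a, which with Kif3b drives intraflagellar transport, was higher by 2.19 ± 0.32 (adjusted p = 0.0135). It had 2.83, 2.79, 3.03, 1.90 and 2.06 in 1-cell clones, against 0.03, 0.67 and 0.31 in IVF embryos and 2.85 to 3.17 in MII oocytes, with clone replicates 1 to 3 at or near the oocyte range. The other 3 probe sets of Kif3a differed by 0.01 to 0.23. Kif1b, a vesicle and mitochondrion carrier, split the clones with 2.17, 2.25 and 2.42 in replicates 1 to 3 and 0.34 and 0.24 in replicates 4 and 5, against 0.15 to 0.51 in IVF embryos (adjusted p = 0.479). With replicates 1 to 3 left out, none of the 3 kinesins passed: the differences of Kif17 (-1.27), Kif2a (-1.25) and Kif3a (1.64) kept their direction with adjusted p of 0.0519 to 0.107. Leaving out IVF 1-cell replicate 1 cost Kif3a its call at 2.03. Kif2a lost its call without any of the IVF embryos or without clone replicate 2, 3 or 4, at -1.81 to -1.62. With the hybridisation controls as a covariate Kif17 (-1.21) and Kif3a (1.52) passed and Kif2a (-1.18) did not.

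Over the next divisions Kif17 fell and Kif3c rose. From the IVF 1-cell to the 2-cell embryo 13 kinesins changed, 7 up and 6 down (limma, 35.9% of all genes), with 2 up and 5 down under quantile normalisation. From the 2-cell to the 4-cell stage 8 changed, 3 up and 5 down (23.8%), with 7 and 3 under quantile normalisation. Kif17 changed by -4.48 ± 0.37 and then by -5.85 ± 0.37, and lay between -0.22 and -0.16 in the 3 IVF 4-cell embryos. In clones it changed by -2.51 ± 0.33 and -5.38 ± 0.33, and clone 4-cell replicates 1, 4 and 5 had 2.23, 1.09 and 1.67. With quantile normalisation the first clone step of Kif17 was 0.00. Kif3c, a kinesin-2 partner of Kif3a, rose by 5.35 ± 0.62 in IVF and 4.73 ± 0.35 in clone 2-cell embryos, had 0.75 to 1.44 in IVF 8-cell embryos and fell from the morula to the blastocyst in IVF embryos (-3.95 ± 0.62) and in clones (-3.82 ± 0.35). The changes of its other probe set at these IVF steps were 1.94 and -0.43. Among the rest, Kif26b (-3.67 ± 0.62), Kif2a (-3.26 ± 0.33), Kif24 (-1.42 ± 0.50) and Kif16b (-1.13 ± 0.41) fell and Kif27 (2.92 ± 0.96), Kif5b (2.51 ± 0.35), Kif18b (1.22 ± 0.27) and Kif1b (1.21 ± 0.36) rose in IVF 2-cell embryos. In IVF 4-cell embryos the endosome motor Kif16b (3.09 ± 0.41), Kif14 (1.78 ± 0.29) and Kif5b (1.45 ± 0.35) rose, while Kif5c (-1.54 ± 0.41), Kif3b (-1.43 ± 0.41), Kif2a (-1.07 ± 0.33) and Kif18b (-0.93 ± 0.27) fell. Leaving out IVF 1-cell replicate 1 or 2-cell replicate 2 cut the first count to 8, and leaving out 2-cell replicate 1 cut the second to 4. The hybridisation controls were -0.74 to -0.26 on IVF 2-cell arrays, against 0.52 to 0.80 on IVF 1-cell arrays, and with them as a covariate 5 of the 13 changes of the first step passed, those of Kif17 (-3.34), Kif26b (-4.89), Kif2a (-3.31), Kif3c (6.67) and Kif5b (3.57). All 8 of the second step passed.

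Kif5c, a conventional kinesin heavy chain best known from neurons, ran down alike in both series. Its means were 2.58 in the MII oocyte and then 2.84, 2.01, 0.47, -1.20, -4.93 and -4.95 from the IVF 1-cell embryo to the blastocyst, and its 6 clone stage means correlated with the IVF means at r = 0.999 (a description of 6 points). From the 8-cell embryo to the morula it fell in IVF embryos (-3.74 ± 0.41) and in clones (-3.80 ± 0.56). The 3 other probe sets of Kif5c had changes of -2.14 to -0.0015 at that IVF step and of -0.31 to -0.04 in clones. Kif5b ran the other way, with its lowest IVF values at the 1-cell stage (-3.46, -3.36 and -3.10) and its highest in the morula (1.43, 1.42 and 1.53). Kif1c, a Golgi and vesicle motor, and Kif13b and Kif21b peaked in the blastocyst: from the IVF morula they rose by 3.13 ± 0.85, 2.72 ± 0.48 and 1.57 ± 0.31. The rises of Kif1c and Kif21b were those of 1 probe set each: the 3 other probe sets of Kif1c had changes of -0.05 to -0.04, and the 1 of Kif21b one of 0.08. The 3 other probe sets of Kif13b had changes of -0.06 to 1.25, and 1 of them shared the sign. Kif13b (1.40 ± 0.25) and Kif21b (1.30 ± 0.41) rose there in clones as well. In all, 12 kinesins changed from the IVF morula to the blastocyst, 5 up and 7 down (limma, 22.6% of all genes; 5 and 4 with the arrays centred on their medians), among them Kif3b (1.94 ± 0.41) and Kif3a (1.77 ± 0.35) up and Kif1b (-1.84 ± 0.36), Kif5b (-1.63 ± 0.35), Kif20a (-0.70 ± 0.19) and Kif2b (-0.12 ± 0.04) down. In clones 12 changed as well, 6 up and 6 down (34.5%; 4 and 6 under quantile normalisation, 6 and 4 with median centring), with Kif4 up by 1.94 ± 0.50, Kif13a by 1.82 ± 0.61 and Kif3a by 1.73 ± 0.40, and Kif20a (-0.97 ± 0.22), Kif18b (-0.84 ± 0.23), Kif27 (-0.34 ± 0.13) and Kif2b (-0.15 ± 0.05) down. The hybridisation controls were -1.28 to -0.71 on IVF blastocyst arrays, against -0.03 to 0.24 on IVF morula arrays, and -1.28 to -1.10 on clone blastocyst arrays, against -0.10 to 1.04 on clone morula arrays. With them as a covariate Kif3b (3.03) was the 1 of the 12 IVF changes that passed, and Kif13b (1.32), Kif20a (-1.95) and Kif3c (-3.17) were the 3 of the 12 clone changes.

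**Figure D2:**
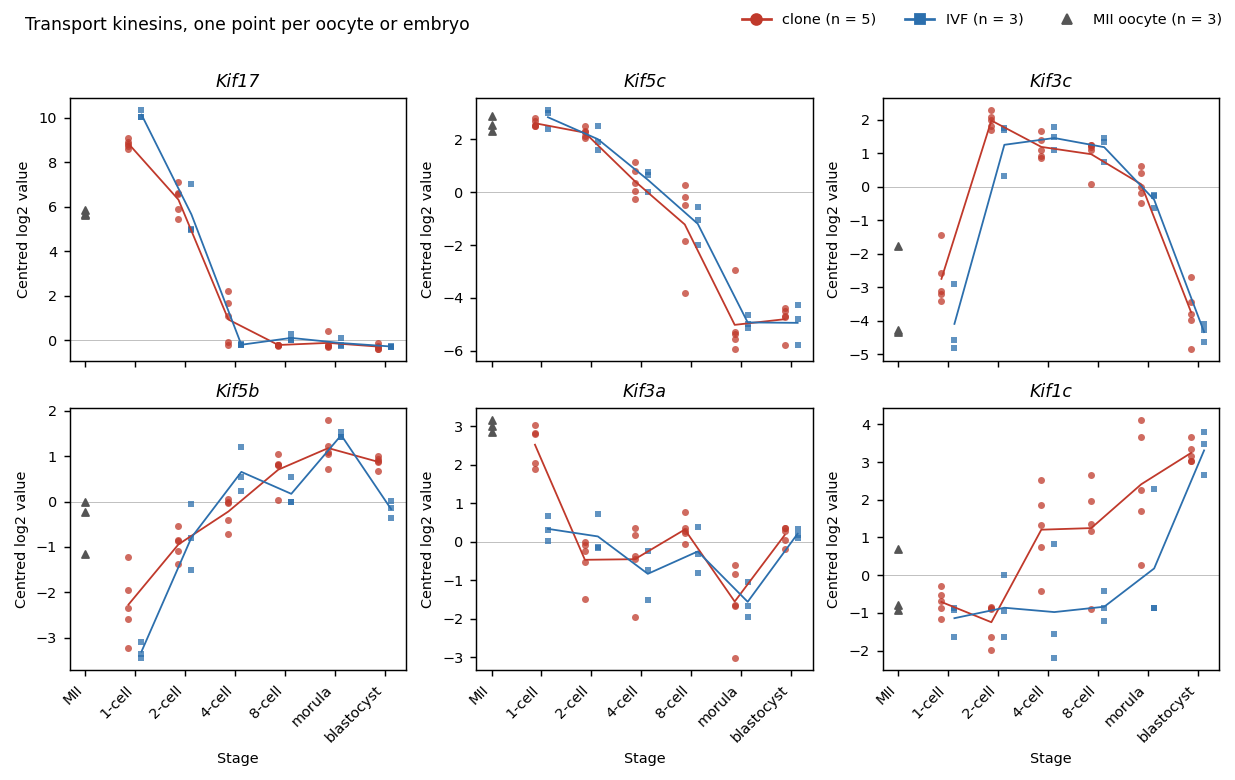
Centred log2 values of 6 transport kinesins by stage, with a point for each clone (red circles, n = 5), IVF embryo (blue squares, n = 3) or MII oocyte (grey triangles, n = 3) and lines through the stage means. Kif17 and Kif5c run down in both series, Kif3c is raised from the 2-cell stage to the morula, Kif5b climbs from its 1-cell low, and Kif3a is higher in 1-cell clones than in IVF embryos.

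Several mitotic kinesins fell as the IVF embryo became a morula. From the IVF 8-cell embryo to the morula 14 kinesins changed, 1 up and 13 down, where 17.2% of all genes changed and 10.1% fell (limma). Of the 15 mitotic genes 7 fell and none rose, and their median difference was -0.61, against 0.00 for all genes. Kif2c, the centromere depolymerase that frees wrongly attached microtubules, fell by 3.08 ± 0.62 (-2.48, 0.48 and -0.46 in IVF morulae, against 2.02, 2.26 and 2.49 in IVF 8-cell embryos). Kif20b, a cytokinesis motor, fell by 2.62 ± 0.60. The chromokinesin Kif22, which pushes chromosome arms away from the poles, fell by 2.29 ± 0.38. Falls were also seen in Kif23, the centralspindlin motor (-2.06 ± 0.42), Kif4, a chromokinesin of the central spindle (-1.58 ± 0.39), Kif18b (-1.45 ± 0.27) and Kif18a, which damps chromosome oscillations (-0.91 ± 0.21). At this step the 3 other probe sets of Kif2c had changes of -2.04 to 0.50 and the 3 of Kif20b ones of -1.02 to 0.02. Those of Kif22 had -2.21 and -0.75, those of Kif23 had -1.44 and 0.06, and the 1 of Kif18a had -0.03. The hybridisation controls were -0.03 to 0.24 on IVF morula arrays, against -0.45 to -0.26 on IVF 8-cell arrays. With them as a covariate 5 of the 14 changes passed. Among the mitotic falls Kif22 (-1.93) and Kif18b (-1.52) passed, while Kif2c (-2.46), Kif20b (-2.35), Kif23 (-1.76), Kif4 (-0.90) and Kif18a (-0.69) did not, at adjusted p of 0.0558 to 0.242. Stage markers moved at the same step: 4 of 5 oocyte markers and 3 of 4 markers of the 2-cell embryo fell (medians of the lists -2.84 and -4.14) and 3 of 5 blastocyst markers rose. Their part in the falls of the kinesins was not tested. Transport genes Kif5c, Kifc3 (-2.13 ± 0.43) and Kif1b (-1.57 ± 0.36) fell as well, and Kif5b rose by 1.29 ± 0.35. Kif11 and Kifc1, a minus-end motor that focuses spindle poles, did not pass (-0.06 and -0.61). From the 4-cell to the 8-cell IVF embryo only Kif5c (-1.67 ± 0.41), Kif14 (-1.53 ± 0.29) and Kif18a (-0.92 ± 0.21) changed, all down (1.98% of all genes; 1 up and 3 down under quantile normalisation), and that count was 5 without IVF 4-cell replicate 2 and 1 without any of 11 other arrays (each MII oocyte, each 1-cell embryo, 4-cell replicates 1 and 3, 8-cell replicate 1, morula replicate 3 and blastocyst replicate 2).

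In clones, falls of mitotic kinesins passed at the 2 steps before that one. From the clone 2-cell to the 4-cell stage 15 kinesins changed, 5 up and 10 down, where 29.9% of all genes changed (limma; 3 and 10 with median centring), and among the 15 mitotic genes 5 fell and Kif2b rose by 0.14. The falls were those of Kif2c (-2.56 ± 0.78), Kif2a (-1.76 ± 0.39), Kif20b (-1.50 ± 0.49), the cytokinesis motor Kif14 (-1.40 ± 0.45) and Kif18a (-0.92 ± 0.28), where 14.7% of all genes fell. Other probe sets had changes of -1.27 to 0.095 (3 of Kif2c), -2.06 to -0.29 (4 of Kif2a) and -0.27 to 0.22 (3 of Kif20b), and the 1 of Kif18a had 0.35. Of the other kinesins Kif1c (2.45 ± 0.62), Kifc3 (2.08 ± 0.32), Kif5b (0.72 ± 0.26) and Kif5a (0.07 ± 0.03) rose, and the larger falls were those of Kif17, Kif26b (-2.37 ± 0.42) and Kif5c (-1.84 ± 0.56). The 3 other probe sets of Kif1c had changes of 0.04 to 0.07. The 4-cell clones were spread for Kif2c, which had 0.74, 0.24, -4.17, -3.97 and -0.19 in 4-cell clones, against 0.78, 2.27, 1.32, 0.03 and 1.05 in 2-cell clones, and without 4-cell replicate 3 or 4 it was -1.89 or -1.94 and did not pass. Kif20b lost its call without 4-cell replicate 3 or 5 (-1.21 and -1.39), and Kif14 without 2-cell replicate 3 or 5 or 4-cell replicate 4 (-1.25 to -0.997). From the clone 4-cell to the 8-cell stage 6 kinesins changed, 1 up and 5 down (6.5% of all genes), with 4 mitotic falls: Kif4 (-2.02 ± 0.50), Kif20b (-1.76 ± 0.49), Kif18b (-1.02 ± 0.23) and Kif18a (-1.02 ± 0.28). Of all genes 4.17% fell. The 3 other probe sets of Kif20b had changes of -1.71 to -0.006 and the 1 of Kif18a one of -0.18. Kif17 fell by 1.14 ± 0.33 and Kif5b rose by 0.92 ± 0.26. That count was 3 without clone 8-cell replicate 2 and 1 without replicate 3. Without the doubted replicate 4, Kif4 (-2.41), Kif20b (-1.77) and Kif18b (-1.06) kept their calls, as did Kif5b (1.09), and Kif18a (-0.93) and Kif17 (-1.15) did not. With the hybridisation controls as a covariate the 4 mitotic falls passed and the changes of Kif17 (-1.09) and Kif5b (0.55) did not. Kif20b lost its call without 4-cell replicate 1 or 2 or 8-cell replicate 2 or 3 (-1.61 to -1.53), Kif4 lost it without 8-cell replicate 3 (-1.66), and Kif17 and Kif5b lost it in 8 and 6 of the 30 fits without an array. The 4-cell and 8-cell ranges overlapped for Kif4, Kif20b, Kif18a, Kif17 and Kif5b and were apart for Kif18b. From the clone 8-cell embryo to the morula no mitotic kinesin changed by limma at adjusted p, and none had an unadjusted p under 0.05. The 3 members that did, of 17.4% of all genes, were Kif5c, Kifc3 (-2.54 ± 0.32) and Kif3a (-1.87 ± 0.40). Without clone 8-cell replicate 4 they were -3.43, -2.46 and -1.97, and all 3 passed.

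Whether these steps differed between the series was tested with the difference of the transitions over all 51 arrays. For the step from the 8-cell embryo to the morula 2 kinesins passed (limma, 5.66% of all genes), both mitotic (4 up and 1 down of 5 under quantile normalisation): Kif2c at 3.96 ± 1.12 (adjusted p = 0.0277) and Kif18b at 1.81 ± 0.36 (adjusted p = 0.00141). The sign is that of the clone change minus the IVF change, and the clone changes alone were 0.88 for Kif2c and 0.36 for Kif18b, neither of which passed. Of the 15 mitotic genes 12 had a positive difference, with a median of 0.79, against -0.02 for all genes. Without the doubted clone the mitotic median was 0.53, and with the controls as a covariate it was 0.57. Kif18b kept its call without that clone (1.84) and with the covariate (1.97). Kif2c kept its call without the doubted clone (4.21) and with the covariate (3.93) and lost it without IVF 8-cell replicate 3 (3.84), IVF morula replicate 1 (3.13) or clone morula replicate 4 (3.64). For the step from 4 to 8 cells only Kif18b passed (-1.35 ± 0.36, adjusted p = 0.0484; 1.31% of all genes; 1 up and 1 down under quantile normalisation), and 32 of the 51 fits without a single array lost it. Without the doubted clone it passed (-1.39, adjusted p = 0.0469 by limma, with 2 kinesins called), and with the covariate it did not (-1.20). For the step from 2 to 4 cells only Kif14 passed (-3.18 ± 0.62, adjusted p = 0.00202; 2.64% of all genes), in each of the 51 such fits. Kif14 had -0.19, 1.21, 3.07, 1.90 and 3.51 in 2-cell clones, against -0.06, -0.01 and -0.25 in IVF 2-cell embryos, and -0.08 to 1.63 in 4-cell clones, against 0.89 to 2.54 in IVF 4-cell embryos, so most clones were high a stage before the IVF embryos. For the step from morula to blastocyst no kinesin passed by limma (1.62% of all genes), and 3 had an unadjusted p under 0.05.

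**Figure D3:**
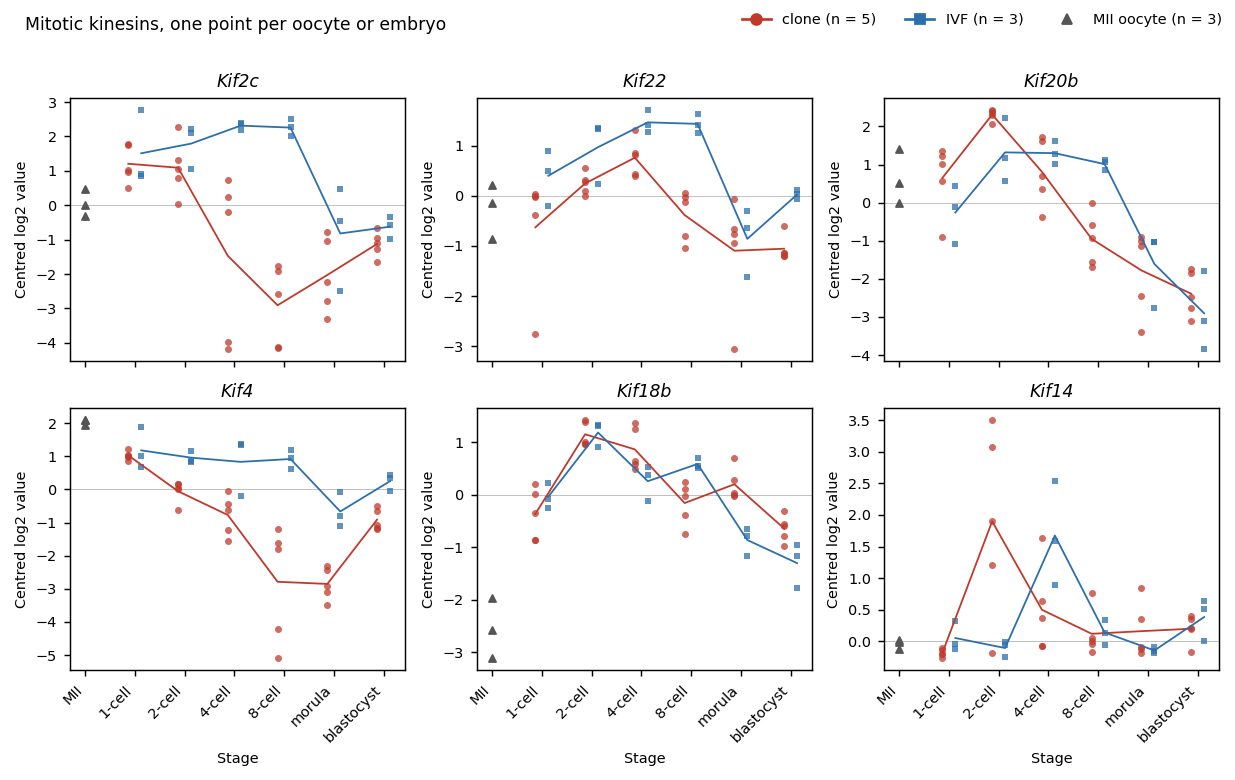
Centred log2 values of 6 mitotic kinesins by stage, with a point for each clone (red circles, n = 5), IVF embryo (blue squares, n = 3) or MII oocyte (grey triangles, n = 3) and lines through the stage means. Kif2c, Kif20b and Kif4 are low by the 8-cell stage in clones and fall after it in IVF embryos, and Kif14 peaks at the 2-cell stage in clones and at the 4-cell stage in IVF embryos.

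At the 8-cell stage itself 7 kinesins differed between clones and IVF embryos, 1 up and 6 down (limma, 6.62% of all genes with 4.47% lower; 0 and 6 with median centring, 1 and 3 under quantile normalisation). Kif2c stood at -4.14, -4.13, -1.78, -1.90 and -2.59 in clones, against 2.02, 2.26 and 2.49 in IVF embryos. The ranges lay far apart, and the difference of -5.16 ± 0.66 (adjusted p = 0.0112) is 35.9-fold. Kif22 differed by -1.82 ± 0.29 (adjusted p = 0.0223), with 0.06, -0.02, -0.80, -1.04 and -0.12 in clones, against 1.41, 1.26 and 1.63 in IVF embryos. Kif20b differed by -1.96 ± 0.40 (adjusted p = 0.0393), with 0.00, -1.56, -1.69, -0.93 and -0.58 in clones, against 0.87, 1.11 and 1.06. Every clone thus lay below every IVF embryo for these 3 mitotic genes. Kif1b differed by -2.95 ± 0.64 (adjusted p = 0.0452), and Kif17 (-0.32 ± 0.07), the Hedgehog-pathway kinesin Kif7 (-0.31 ± 0.05) and Kif2b (0.12 ± 0.03) differed by little. Kif4 had -1.80, -1.63, -4.21, -1.20 and -5.10 in clones, against 0.95, 1.20 and 0.60 in IVF embryos, but its difference of -3.71 ± 1.00 did not pass (adjusted p = 0.0748). Kif4 is X-linked, and the Y-linked Eif2s3y was at -5.41, -5.50 and 2.20 in the IVF 8-cell embryos. The part of embryo sex was not tested. The 15 mitotic genes had a median difference of -0.82, with 12 below 0 (-0.78 without clone replicate 4), against a median of 0.09 for the transport genes and 0.04 for all genes. Ranges of clones and IVF embryos were apart for 20 of the 41 kinesins, close to the 48.2% of all genes. Other probe sets of Kif22 differed by -1.98 and -0.57, those of Kif2c ranged from -3.63 to 0.23 and those of Kif20b from -1.28 to 0.24. The 6 of Kif1b ranged from -1.72 to 0.90, and the 2 of Kif17 had -0.10 and 0.04.

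These 8-cell calls leaned on few embryos. Without the doubted clone replicate 4, Kif2c (-5.42), Kif22 (-1.65) and Kif7 (-0.31) passed and Kif20b (-1.97), Kif1b (-3.16), Kif17 (-0.32) and Kif2b (0.11) did not. Kif2c passed in all 8 fits that left out an embryo, Kif22 in 5 (not without any single IVF embryo, at -1.91 to -1.72), and Kif20b and Kif1b in 1 each, Kif20b without clone replicate 1 and Kif1b without clone replicate 2. The count was 2 without IVF replicate 1, IVF replicate 2 or clone replicate 3, 3 without IVF replicate 3 and 4 without clone replicate 5. The hybridisation controls stood at -0.01 to 0.99 on the clone arrays, against -0.45 to -0.26 on the IVF arrays, and with them as a covariate no kinesin passed. The ranges of the controls were apart, so array and group cannot be told apart here. Markers of earlier stages moved with these genes: 3 of 5 oocyte markers (Zp3 -2.75 ± 0.32, Gdf9 -2.88 ± 0.59, Bmp15 -0.88 ± 0.14) and 3 of 4 markers of the 2-cell embryo (Zfp352 -5.85 ± 0.80, Tcstv1 -4.21 ± 0.53, Tcstv3 -4.04 ± 0.72) were lower in 8-cell clones. Without clone replicate 4, Gdf9 (-2.81) and Tcstv3 (-3.78) lost their calls and the other 4 kept them. All 9 of these markers had differences below 0, and their part in the kinesin result was not tested.

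No kinesin passed between clones and IVF embryos at the neighbouring stages. At the 4-cell stage no kinesin passed by limma (2.26% of all genes), 10 had an unadjusted p under 0.05, 1 passed without clone 4-cell replicate 5, and in the fit of all 51 arrays 8 passed, 1 up and 7 down. The median of the 15 mitotic genes was -0.54, with 5 above 0, against 0.01 for all genes. The hybridisation controls were apart (0.71 to 1.23 on clone arrays, against -0.53 to -0.15 on IVF arrays), and with them as a covariate that median was 0.39. Differences without a call at this stage were those of Kif2c (-3.78 ± 1.34), Kifc1 (-2.35 ± 0.53), Kif4 (-1.60 ± 0.49) and Kif22 (-0.70 ± 0.23). At the morula stage no kinesin passed (0.165% of all genes), 4 had an unadjusted p under 0.05, 1 passed without IVF morula replicate 1 and 3 passed in the fit of all 51 arrays. The mitotic median was -0.17 there, with 7 of the 15 genes above 0. Kif4 stood at -3.49, -2.90, -2.32, -3.11 and -2.45 in clone morulae, against -0.81, -0.07 and -1.11 in IVF morulae (-2.19 ± 0.34, adjusted p = 0.0782). Eif2s3y was at 1.07, -5.49 and 1.77 in the IVF morulae, and the part of embryo sex in this X-linked gene was not tested. Kif11, the spindle-sliding motor, had clone-minus-IVF differences of 0.41 ± 1.05, -0.36 ± 1.23 and 0.10 ± 0.38 at the 4-cell, 8-cell and morula stages, and the centralspindlin motor Kif23 had -0.50 ± 0.36, -0.82 ± 0.83 and 0.15 ± 0.46. Among transport genes followed through all stages, Kif13a, a vesicle motor of the secretory pathway, ranged from -0.23 ± 0.73 (morula) to 1.90 ± 0.61 (1-cell) and Kif21a from -0.32 ± 0.20 (2-cell) to 0.81 ± 0.58 (1-cell), none of them past the threshold.

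In blastocysts 6 kinesins differed, 1 up and 5 down (limma, 6.18% of all genes). Kif22 was again lower (-1.08 ± 0.15, adjusted p = 0.013), with -0.60, -1.20, -1.13, -1.19 and -1.14 in clones, against -0.06, 0.11 and 0.03 in IVF embryos. Kif4 (-1.16 ± 0.21, adjusted p = 0.0265) and Kif20a, which brings the chromosomal passenger complex to the central spindle (-0.50 ± 0.08, adjusted p = 0.0218), were lower too. Kif4 lies on the X chromosome. Eif2s3y was at -5.52 in IVF blastocyst replicate 1, against 2.24 and 2.06 in the other IVF blastocysts, and Kif4 was -0.04 in that embryo and 0.44 and 0.34 in the others. The part of embryo sex in the Kif4 difference was not tested.

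Of the transport genes, the endosome motor Kif16b (-1.10 ± 0.19, adjusted p = 0.0263) and Kifc3 (-1.20 ± 0.19, adjusted p = 0.0205) were lower, with Kifc3 at -1.23 to -0.69 in clone blastocysts, against 0.00 to 0.66 in IVF blastocysts. Kif5b was higher by 1.04 ± 0.10 (adjusted p = 0.00597), with 0.90, 0.94, 1.00, 0.87 and 0.67 in clones, against -0.37, -0.15 and 0.01. The clone and IVF ranges were apart for all 6, and for 7 of the 41 kinesins, near the 16.3% of all genes. Kif22 and Kif5b passed in all 8 fits that left out an embryo. Kifc3 lost its call without IVF replicate 1 or 3, Kif20a without any IVF embryo or clone replicate 2, Kif4 without IVF replicate 2 or 3 or clone replicate 2, 3 or 4, and Kif16b without IVF replicate 2 or 3 or clone replicates 2 to 5. Over the 8 fits their differences lay at -1.36 to -1.03 (Kifc3), -0.56 to -0.47 (Kif20a), -1.30 to -1.06 (Kif4) and -1.28 to -1.0003 (Kif16b). The count was 3 without IVF replicate 2 or clone replicate 2 and 2 without IVF replicate 3. With the hybridisation controls as a covariate (-1.28 to -1.10 on clone arrays, against -1.28 to -0.71 on IVF arrays) only Kif5b passed. In the fit of all 51 arrays, whose spread is shared over all stages, none of these 6 passed and 1 other kinesin did. The other 5 probe sets of Kif5b differed by -0.30 to 0.68.

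**Figure D4:**
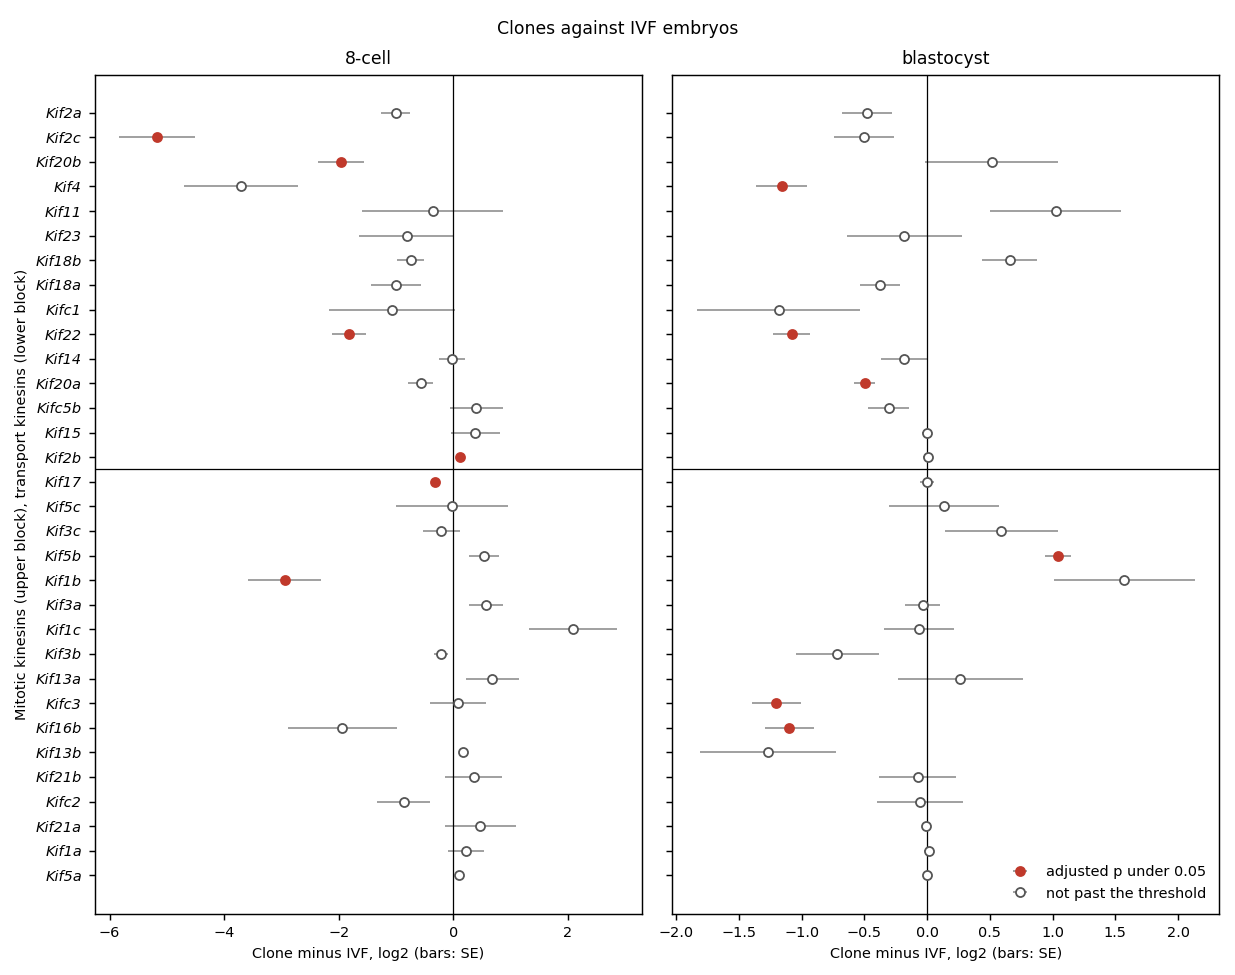
Clone minus IVF difference (log2, bars give the SE; 5 clones and 3 IVF embryos) of the mitotic (upper block) and transport (lower block) kinesins at the 8-cell stage (left) and in blastocysts (right), with red filled points past adjusted p 0.05. At 8 cells Kif2c, Kif20b, Kif22 and Kif1b lie furthest left among the filled points, and in blastocysts Kif5b is the filled point on the right.

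At the 2-cell stage Kif27, a motile-cilium kinesin related to Kif7, was the kinesin that passed (limma, 2.37% of all genes). It had 0.92, 0.75, 0.42, 0.15 and -0.09 in clones, against 4.02, 2.70 and 3.77 in IVF embryos, a difference of -3.07 ± 0.37 (adjusted p = 0.0147). Kif27 rose to this level in the IVF 2-cell embryo, was 2.10, 0.95 and 4.65 in IVF 4-cell embryos and 3.86 in 1 of the 3 IVF 8-cell embryos, while clones stayed between -0.09 and 0.92 up to the 8-cell stage. The call held in all 8 fits without an embryo. The hybridisation controls were 0.56 to 1.24 on clone arrays, against -0.74 to -0.26 on IVF arrays, and with them as a covariate no kinesin passed. The count was 2 without IVF 2-cell replicate 3 and 3 without IVF 2-cell replicate 1 or clone 2-cell replicate 5.

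The step from the 1-cell to the 2-cell stage gave more calls between the series than the other 4 steps, with 7 kinesins, 4 up and 3 down (limma, 11.2% of all genes; 1 and 0 under quantile normalisation). Within the clones 17 changed, 7 up and 10 down (41.3%; 4 and 1 under quantile normalisation), led by rises of Kif3c, Kif14 (2.08 ± 0.45), Kif20b (1.66 ± 0.49), Kif18b (1.52 ± 0.23) and Kif5b (1.33 ± 0.26) and falls of Kif3a (-2.99 ± 0.40), Kif13a (-2.62 ± 0.61), Kif1b (-2.54 ± 0.66), Kif17 and Kif24 (-2.45 ± 0.31). Without 1-cell clone replicates 1 to 3 the clone count was 15, and Kif1b (-1.35, adjusted p = 0.275 by limma) and Kif16b (-1.71, adjusted p = 0.236) lost their calls. Kif26b was 0.31 under quantile normalisation and Kif1b 0.82 with the mean of its probe sets. Kif1b fell in clones and rose by 1.21 in IVF embryos, and the difference of these changes was -3.75 ± 0.90. Relative to IVF, Kif27 (-3.02 ± 0.76) and Kif3a (-2.79 ± 0.59) fell more or rose less in clones. Kif26b (2.53 ± 0.73), Kif14 (2.24 ± 0.62), Kif17 (1.97 ± 0.52) and Kif2a (1.81 ± 0.58) fell less or rose more. Other probe sets had differences of -1.98 to 1.23 (6 of Kif1b) and -0.22 to 0.0017 (3 of Kif3a). Those of Kif2a (4) had -0.15 to 0.44, and those of Kif17 (2) had 0.74 and 1.08. Without 1-cell clone replicates 1 to 3 the difference passed for Kif17 (1.93), Kif27 (-3.04) and Kif3a (-2.25) and not for the other 4. The hybridisation controls differed between the stages of both series (0.56 to 1.24 on clone 2-cell arrays, against -1.06 to 0.52 on clone 1-cell arrays), and with them as a covariate none of the 7 passed while 1 other kinesin did. Within the clones 13 of the 17 passed with the covariate, and Kif1b (-0.95), Kif16b (-0.96), Kif2a (-1.37) and Kifc2 (0.95) did not.

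Genes of proteins that work with these motors were tested as 3 lists. Of 17 spindle and midzone partners, 9 changed from the IVF 8-cell embryo to the morula, 2 up and 7 down, where 17.2% of all genes changed and 10.1% fell, among them the centralspindlin subunit Racgap1 (-2.64 ± 0.31), the chromosomal passenger kinase Aurkb (-2.19 ± 0.26) and the microtubule bundler Prc1 (-1.29 ± 0.18) down and Numa1, a spindle-pole protein, up (1.95 ± 0.30). Clones against IVF embryos, where 6.31%, 2.37%, 2.26%, 6.62%, 0.165% and 6.18% of all genes passed from the 1-cell stage to the blastocyst, gave 1 at the 1-cell stage (Cenpe, 1.23 ± 0.14), 4 at 2 cells (Racgap1 -2.36 ± 0.25, Hmmr 1.76 ± 0.23, Aurkc 1.61 ± 0.26, Birc5 -0.86 ± 0.15), 1 at 4 cells (Birc5, -0.73 ± 0.12), 2 at 8 cells (Numa1 1.70 ± 0.24, Ska1 -1.23 ± 0.24), none in morulae (1 at unadjusted p under 0.05) and 2 in blastocysts (Tpx2 -0.92 ± 0.15, Incenp -0.54 ± 0.11). Without the doubted clones Cenpe (1.11) and Ska1 (-1.22) lost their calls and Numa1 (1.79) kept its call. The hybridisation controls of clone and IVF arrays were apart at the 2-cell, 4-cell and 8-cell stages. Array and group thus cannot be told apart for the partner calls of these stages either, and their fits with the covariate are not given here. The 17 partners had a median clone-minus-IVF difference of -0.70 at the 8-cell stage, beside -0.82 for the mitotic kinesins.

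Of the 10 light chains and cargo adaptors measured, 1 passed at the 1-cell stage (the mitochondrial adaptor Rhot1, 1.93 ± 0.40; 6.31% of all genes) and 1 in blastocysts (the light chain Klc3, 1.50 ± 0.24; 6.18%). Of 17 genes of dynein and dynactin, the motor that walks towards the minus end, 3 passed at the 1-cell stage (Dynll2 0.94 ± 0.12, Dctn5 -1.51 ± 0.27, Dctn3 1.23 ± 0.24) and 5 in blastocysts, 3 up and 2 down, led by the dynein regulator Pafah1b1 (-1.55 ± 0.22), Dynll1 (0.59 ± 0.09), Dynll2 (1.21 ± 0.20) and Dync1i2 (0.49 ± 0.09). Without 1-cell clone replicates 1 to 3 Rhot1 (2.56), Dynll2 (1.08), Dctn5 (-1.25) and Dctn3 (1.12) lost their calls. At the 2-cell, 4-cell, 8-cell and morula stages none of these 27 genes passed by limma. Between 2 and 4 of them had an unadjusted p under 0.05 at each of those stages. Without clone 8-cell replicate 4, Dync1i2 (1.07) and Nde1 (-2.75) passed at the 8-cell stage, where the controls of clone and IVF arrays were apart.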

How the data were processed

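RNA of single oocytes and embryos was amplified in 2 cycles and hybridised to Affymetrix mouse arrays, per the labels' protocols. The deposited log2 values were made by the authors with RMA, per the submitters' processing notes, which give no version. In 94.3% of probe sets exactly 1 array stands at 0, so each probe set was centred before deposit. The log base is read from the values: the largest range of a probe set, 13.8, exceeds the 11.1 that natural logs of a 16-bit scanner allow. Probe sets with 1 gene symbol (34945 of 45101) were kept, with the probe set of largest SD over the 51 arrays for each of 18193 genes, and 104 probe sets belonged to the 41 kinesins.

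Differences were tested with limma 3.58.1 (R 4.3.3; tables and figures in Python 3.11.15) and Benjamini-Hochberg adjustment over all 18193 genes at 0.05. Clones against IVF embryos, and clone 1-cell embryos against oocytes, used the 8 arrays of each comparison, transitions the 21 oocyte and IVF or the 30 clone arrays, and differences of transitions all 51. On simulated data for the 4-cell comparison of clones with IVF embryos (18193 genes), 38.8%, 64.2% and 81.8% of log2 changes of 1, 2 and 3 were recovered. The number of arrays limits the precision, and p-values measure the spread between these embryos.

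The members, gene lists and named genes were chosen with earlier results of these data known. Every member past the threshold is named where clones meet IVF embryos or oocytes or where transitions differ, and up to 5 rises and 5 falls elsewhere. Kif11, Kif20b, Kif22, Kif23, Kif2c, Kifc1, Kif1b, Kif3a, Kif5b, Kif13a, Kif16b and Kif21a were followed throughout, and up to 4 members of each partner list were named by adjusted p. Kif19a, Kif25 and Klc2 were not measured by a single-symbol probe set. Alternatives were median centring or quantile normalisation of the arrays, the mean of a gene's probe sets, a filter leaving out the 30% of genes with the smallest SD, 1 fit of all arrays, a replicate block, the hybridisation controls as a covariate and leaving out each array. Leaving out clone 1-cell replicates 1 to 3, and the covariate for transitions, were added after seeing the data. Detection calls were not used here.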

Additional observations from a re-analysis of the deposited data

Results flagged for a closer look

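Clone blastocyst replicate 1 stood apart from the other clone blastocysts for Kif22, at -0.60 against -1.20 to -1.13, with a gap of 0.885 of the group's range where 0.71 marks an outlying sample. It was the 1 such sample among 31 tests, where chance marks about 1 in 20. Each test took a gene called between clones and IVF embryos or oocytes, in its clone group only. Kif17 and Kif2a in 1-cell clones were counted in both comparisons, and IVF embryos and oocytes were not tested.

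The change between stages differed between clones and IVF embryos for the following kinesins (limma's test of the difference over 51 arrays, clone change minus IVF change). Between the 1-cell and 2-cell stages these were Kif1b (-3.75), Kif27 (-3.02), Kif3a (-2.79), Kif2a (1.81), Kif17 (1.97), Kif14 (2.24) and Kif26b (2.53). Between 2 and 4 cells it was Kif14 (-3.18) and between 4 and 8 cells Kif18b (-1.35). Between 8 cells and the morula it was Kif18b (1.81) and Kif2c (3.96).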

How the results depend on the processing

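Of 160 kinesin calls, 148 kept their direction and side of the threshold with arrays centred on their medians, 98 with quantile normalisation (2 turned direction), 128 with the mean of all probe sets (1 turned) and 132 with a replicate block. So did 118 of 149 in 1 fit of all 51 arrays, 144 of 148 with the SD filter, 86 of 160 with the hybridisation controls as a covariate (2 turned), and 3428 of 3764 when an array was left out. Turned values with the covariate were Kif24 0.0755 (IVF, 1 to 2 cells) and Kif2b 0.0279 (IVF, morula to blastocyst). The others, all in the clone step from 1 to 2 cells, were Dynll2 0.212, Kif17 0.00368, Kif26b 0.308 and Nusap1 0.0431 with quantile normalisation and Dynll2 0.310 and Kif1b 0.816 with the probe-set mean. No scaling moved the median of all genes by more than 0.0616. The cause of these shifts was not tested.

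Counts of kinesins between clones and IVF embryos moved as follows. One fit of all 51 arrays gave 4 (2-cell), 8 (4-cell), 12 (8-cell), 3 (morula) and 1 (blastocyst). The covariate gave 0 (2-cell), 0 (8-cell) and 1 (blastocyst). The SD filter gave 2 (2-cell), 4 (8-cell) and 1 (morula), quantile normalisation 4 (8-cell) and the probe-set mean 1 (1-cell). Leaving out clone 1-cell replicates 1 to 3 gave 0. The replicate block gave 0 at the 1-cell, 2-cell, 8-cell and blastocyst stages and 4 for the MII oocyte to cloned 1-cell step. Deviations from the group means of same-numbered clones and IVF embryos had correlations of -0.204 to 0.102 over all genes, and oocytes were not part of that check. The block leaves fewer residual degrees of freedom, and the cause of the lost calls was not tested.

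Counts over transitions moved with quantile normalisation to 6 (IVF, MII oocyte to 1-cell), 7 (IVF, 1 to 2 cells), 5 (clone, 1 to 2 cells), 8 (clone, 2 to 4 cells) and 5 (clone, 8 cells to morula), to 5 with the probe-set mean in the last, and to 0 for IVF 4 to 8 cells in 1 fit of all arrays. The covariate, chosen for transitions after seeing the data, gave 7 (IVF, MII oocyte to 1-cell), 5 (IVF, 1 to 2 cells), 5 (IVF, 8 cells to morula), 1 (IVF, morula to blastocyst) and 6 (clone, morula to blastocyst), and 1, 2 and 0 for the differences of transitions from 1 to 2, 2 to 4 and 4 to 8 cells. Differences of transitions moved from 1 to 2 cells to 1 (quantile), 3 (probe-set mean) and 3 (clone 1-cell replicates 1 to 3 left out), from 2 to 4 cells to 2 (median centring), 3 (quantile), 2 (probe-set mean) and 2 (SD filter), from 4 to 8 cells to 2 (quantile), 0 (probe-set mean) and 0 (SD filter), and from 8 cells to morula to 5 (quantile).

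When single arrays were left out, the counts for clones against IVF embryos ran 1 to 3 (1-cell), 1 to 3 (2-cell), 0 to 1 (4-cell), 2 to 6 (8-cell), 0 to 1 (morula) and 2 to 6 (blastocyst), and 9 to 12 for the MII oocyte to cloned 1-cell step. IVF transitions ran 14 to 18 from the MII oocyte, then 8 to 13, 4 to 10, 1 to 5, 11 to 14 and 9 to 13, and clone transitions 14 to 18, 12 to 16, 1 to 7, 3 to 4 and 10 to 13. Differences of transitions ran 5 to 9, 1 to 2, 0 to 2, 1 to 3 and 0 to 0, and the F tests 32 to 35 (IVF) and 28 to 32 (clones).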
